A study of Mus musculus with 15 samples.

Results

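The Hox genes are the subject here: every gene whose symbol is Hox followed by the cluster letter a, b, c or d and a paralog number. The rule found 39 genes among the 47069 in the table, 11 in Hoxa, 10 in Hoxb, 9 in Hoxc and 9 in Hoxd, and it used no measured value. RNA-Seq was run on single proximal tubules dissected under the microscope and labelled PTS2 (12 libraries), and on whole kidney (3 libraries). All came from male C57BL/6 mice aged 2 months, and the labels state no treatment, transgene or altered allele. The PTS2 libraries form 3 sets named m1, m2 and m3, with 4 replicate numbers in each, and neither the meaning of m nor which tubules share an animal is given in the labels. Values are TPM, which correct for gene length and add up to 1000000 per library, so levels can be set side by side between genes.

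Hox genes encode homeodomain transcription factors that give cells their position along the body axis in the embryo. They lie in 4 chromosomal clusters, and members with the same paralog number in different clusters descend from 1 ancestral gene. Their order within a cluster follows the order in which they are switched on along the axis. The kidney arises from intermediate mesoderm, where the Hox11 paralogs are needed for the metanephric kidney to form, and many Hox genes continue to be transcribed in the adult organ.

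The clusters lie on 4 chromosomes of GRCm38, with gene positions from GENCODE M21, in which all 39 genes were found. Hoxa lies on chromosome 6. Hoxb spans chr11:96194316-96368256, Hoxc chr15:102921103-103036852 and Hoxd chr2:74668310-74765142. The sequences upstream of 4 genes are shown because these genes carry the main contrast. Hoxa9 and Hoxa10 were the most abundant Hox genes of the tubules, while Hoxd8 and Hoxd10 were abundant in whole kidney and low in the tubules. Each is the 250 bases before a RefSeq start on GRCm38.p6, read 5′ to 3′ on the gene's strand, with CG dinucleotides in capitals. Hoxa10 has 2 RefSeq starts, and its inner window, like that of Hoxa9, lies within the gene's GENCODE span. The windows are chr6:52227371-52227620 (minus strand) for Hoxa9, chr6:52240855-52241104 and chr6:52234940-52235189 (minus strand) for Hoxa10, chr2:74704365-74704614 (plus strand) for Hoxd8 and chr2:74691641-74691890 (plus strand) for Hoxd10.
Hoxa9: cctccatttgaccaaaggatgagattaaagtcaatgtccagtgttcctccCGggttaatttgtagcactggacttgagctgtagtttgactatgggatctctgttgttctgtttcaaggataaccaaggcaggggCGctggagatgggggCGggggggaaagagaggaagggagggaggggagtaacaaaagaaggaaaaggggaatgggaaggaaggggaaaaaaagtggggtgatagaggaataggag
Hoxa10, outer start: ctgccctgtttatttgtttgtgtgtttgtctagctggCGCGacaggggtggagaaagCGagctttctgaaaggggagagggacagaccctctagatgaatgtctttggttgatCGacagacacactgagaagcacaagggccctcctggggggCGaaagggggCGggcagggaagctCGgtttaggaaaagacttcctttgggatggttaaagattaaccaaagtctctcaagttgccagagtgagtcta
Hoxa10, inner start: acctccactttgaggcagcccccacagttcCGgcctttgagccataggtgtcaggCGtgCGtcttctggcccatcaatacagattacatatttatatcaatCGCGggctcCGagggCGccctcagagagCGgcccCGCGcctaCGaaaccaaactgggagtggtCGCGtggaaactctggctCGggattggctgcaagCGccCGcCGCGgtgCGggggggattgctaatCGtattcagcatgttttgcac
Hoxd8: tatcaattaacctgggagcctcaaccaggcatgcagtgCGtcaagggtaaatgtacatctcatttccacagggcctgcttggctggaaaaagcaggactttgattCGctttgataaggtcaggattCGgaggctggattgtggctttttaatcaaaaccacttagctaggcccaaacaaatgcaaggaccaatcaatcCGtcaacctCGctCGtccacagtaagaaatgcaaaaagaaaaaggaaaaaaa
Hoxd10: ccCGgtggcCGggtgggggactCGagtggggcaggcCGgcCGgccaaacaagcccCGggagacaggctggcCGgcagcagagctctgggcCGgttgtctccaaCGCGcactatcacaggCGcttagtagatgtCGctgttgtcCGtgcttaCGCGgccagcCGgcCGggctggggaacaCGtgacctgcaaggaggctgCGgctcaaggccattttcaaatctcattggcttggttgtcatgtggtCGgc

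The Hoxa9 window holds 3 CG dinucleotides, the windows of the outer and inner Hoxa10 starts 7 and 20, that of Hoxd8 6 and that of Hoxd10 20. RefSeq windows were found for 22 of the 39 Hox genes, 24 windows in all. Their median was 12.5 CG dinucleotides and 58.6% G or C, against 6 and 52.4% over all 32841 windows of this length. The letters CCAAT, searched on both strands, were in 14 of the 24 Hox windows and in 33.86% of all windows; among those shown they are in Hoxd8, Hoxd10 and the inner Hoxa10 window. TATAAA was in 4 of the 24 and in 12.37% of all windows, TGATTNAT in 2 and 2.826%, and TTTATNG in 2 and 9.814%. TATAAA overlaps TTTATNG where its reverse strand is read. The CG numbers of the abundant and of the scarce tubule genes overlapped.

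The depth of each library is unknown, because TPM keep no read totals, so no counting error is attached to a value. Defining markers were checked against the labels. The summed TPM of 8 proximal tubule markers was 54257 to 75732 in PTS2 and 39404 to 40374 in whole kidney. Most of that sum was Kap, whose tubule mean was 56229 TPM against a kidney mean of 29805 TPM. Only 2 of the 8, Kap and Slc27a2, were higher in every PTS2 library. Slc4a4 was lower in every one, and the remaining markers overlapped, so the sum does not speak for the markers as a set. Markers of the early S1 segment summed to 36.3 to 79.9 against 818 to 892, markers of S2 to 368 to 1149 against 719 to 781, and markers of the late S3 segment to 2219 to 4711 against 1212 to 1529. In sum, the libraries labelled PTS2 therefore held more of the S3 markers and less of the S1 markers than whole kidney, and the S2 sums overlapped. Of the 4 S3 markers 3 were higher in every PTS2 library, and Cyp7b1 overlapped. The 2 S2 markers differed. Slc22a8 was lower in every PTS2 library, at 24.7 to 161 TPM against 261 to 284 TPM, and Slc22a6 overlapped. Every marker of 10 other cell types was lower in all PTS2 libraries than in all kidney libraries, and the ranges of the main ones stand beside the results they touch. In the library of set m3 with replicate number 3, the 5 markers of the thick ascending limb summed to 1441 TPM, 56.1% of the kidney mean, against at most 55.8 TPM in the other PTS2 libraries. Hoxd8, Hoxd10 and the Hoxd share are given with and without this library.

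Adult tubules expressed a subset of the Hox genes. Of the 39, 12 had a mean of at least 1 TPM in PTS2, where 11300 of all 47069 genes did. Of the Hox genes 11 reached 1 TPM in every PTS2 library. In whole kidney 21 of the 39 had a mean of at least 1 TPM, which included those 12. Hoxa9, Hoxa10, Hoxb7 and Hoxa7 were the 4 most abundant in the tubules, followed by Hoxd8, Hoxb6, Hoxb2, Hoxc10, Hoxd9, Hoxa5, Hoxb9 and Hoxc6. Hoxa9 and Hoxa10 could not be ordered, since Hoxa9 was higher in 8 of 12 libraries, and neither could Hoxb7 and Hoxa7. The ranges of Hoxa10 and Hoxb7 did not touch, nor did those of Hoxa7 and Hoxd8. Below Hoxd8 the ranges of neighbours in the order overlapped. In whole kidney Hoxd8 came first, above Hoxa10 in 3 of 3 libraries with no overlap, and Hoxd10 came sixth.

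**Figure D1:**
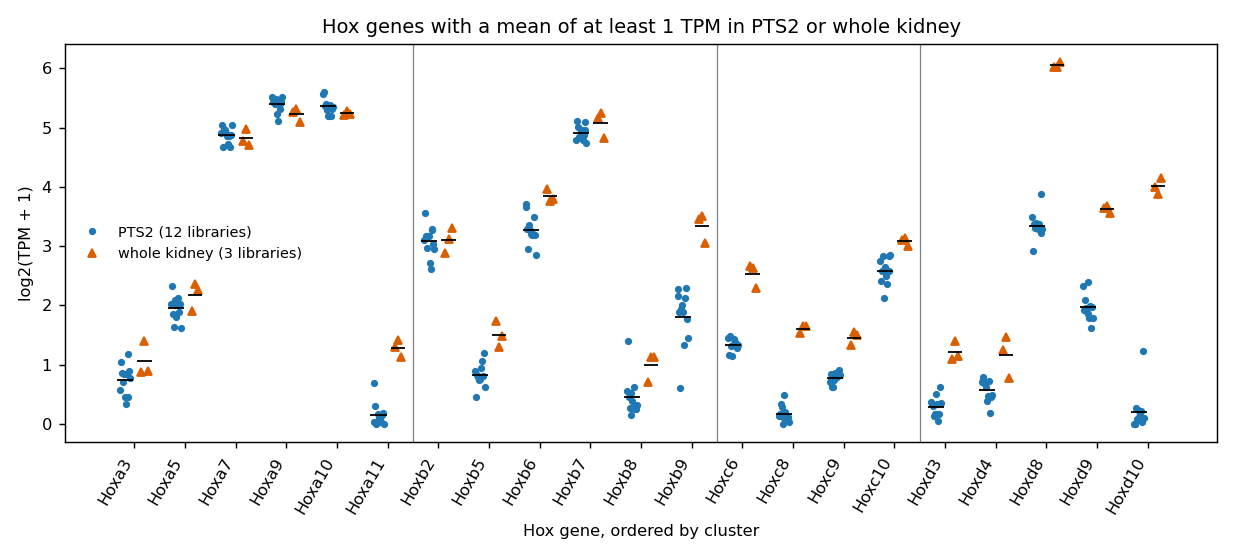
Level of the 21 Hox genes whose mean reached 1 TPM in PTS2 or whole kidney, on a log2(TPM + 1) axis and ordered by cluster; points are libraries (12 PTS2, circles; 3 whole kidney, triangles) and black lines are group means. The Hoxa7, Hoxa9 and Hoxa10 points of both groups overlap, while the PTS2 points of Hoxd8, Hoxd9 and Hoxd10 all lie below the kidney points.

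Summed over all 39 genes, Hox transcripts amounted to 186 TPM ± 10.6 (SD, n = 12) in PTS2 against 288 TPM ± 11.5 (SD, n = 3) for whole kidney, and the ranges did not touch. The clusters contributed unequally. Hoxa summed to 115 TPM ± 7.88 (SD, n = 12) and 108 TPM ± 6.57 (SD, n = 3), with overlapping ranges. Hoxb summed to 50.6 TPM ± 6.09 (SD, n = 12) and 67.4 TPM ± 6.11 (SD, n = 3), 75.1% of the kidney level, and the highest tubule library (64.1 TPM) lay above the lowest kidney library (60.6 TPM). Hoxc summed to 7.79 TPM ± 1.02 (SD, n = 12) and 16.9 TPM ± 1.25 (SD, n = 3). Hoxd summed to 13.2 TPM ± 2.27 (SD, n = 12) and 95.1 TPM ± 2.29 (SD, n = 3), 13.9% of the kidney level. For Hoxc and Hoxd every tubule library lay below every kidney library. Median-of-ratios rescaling, which sets libraries to a common level at the typical gene, parted the Hoxa ranges: the tubules had 110 to 146 TPM and whole kidney 90.9 to 96.1 TPM, every tubule library above. The Hoxb ranges overlapped there too, and Hoxc and Hoxd stayed lower in every tubule library. A sum over genes chosen with results known was given no test.

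As shares of all Hox TPM in a library, which no scaling factor per library can move, Hoxa held 61.5% (57.3% to 65.7% over 12 libraries) in PTS2 and 37.7% (37.2% to 38.6% over 3 libraries) in whole kidney. Hoxb held 27.2% and 23.4%, and Hoxc 4.19% and 5.87%. Hoxd held 7.10% (4.95% to 9.89%) in PTS2 and 33.1% (31.3% to 35.3%) in whole kidney. The highest Hoxd share among the tubules was that of the library of set m3 with replicate number 3, which carried the thick ascending limb markers; without it the tubule mean was 6.84% and the highest 7.96%.

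**Figure D2:**
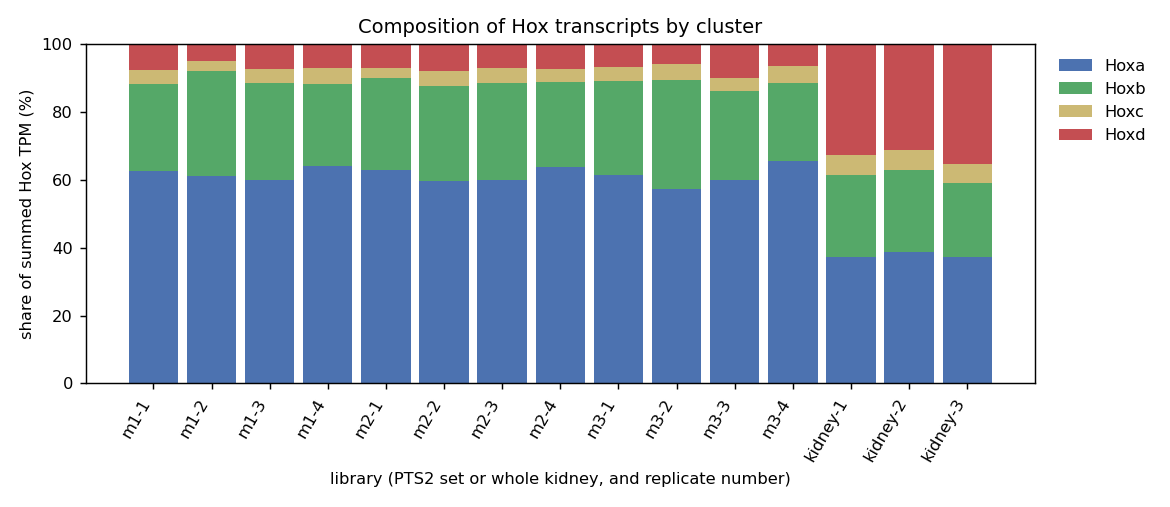
Share of the summed Hox TPM held by each cluster (percent, stacked to 100) in each of the 12 PTS2 and 3 whole kidney libraries. The Hoxd share is between 4.95% and 9.89% in every PTS2 library and between 31.3% and 35.3% in every kidney library.

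PTS2 was compared with whole kidney for each gene with limma on log2(TPM + 1), over the 12039 genes whose mean across the 15 libraries reached 1 TPM (Benjamini-Hochberg adjusted p under 0.05). Across all genes tested, 51.2% were called, 41.5% lower in PTS2 and 9.68% higher, and the median log2 difference was -0.27. Of the 39 Hox genes 14 passed the filter, and 8 of them fell and none rose (limma). Hoxb5 and Hoxd10 passed the filter only through their kidney levels, so the count over the tested genes is a description. By cluster, 0 of 4 tested Hoxa genes fell, 3 of 5 Hoxb genes, 2 of 2 Hoxc genes and 3 of 3 Hoxd genes. The median difference of the tested Hox genes was -0.53. The labels do not say that the libraries come from separate animals, so p-values measure the spread between these libraries, which may be technical.

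The Hoxa genes that give the tubules most of their Hox transcripts did not pass the test on the deposited scale. Hoxa9, a posterior factor of paralog group 9, ranged from 33.5 TPM to 44.9 TPM with a median of 41.6 TPM in the 12 PTS2 libraries. It was 37.3, 38.8 and 33.3 TPM in the kidney libraries, inside the tubule range but for 1 library just below it. The log2 difference was 0.17 ± 0.09 (SE; limma adjusted p = 0.115). Without m2 replicate 3 it was 0.19 ± 0.07 and called higher (adjusted p = 0.0461). With all genes of at least 1 TPM ranked, Hoxa9 stood at percentile 73.4 in PTS2 and 72.2 in whole kidney.

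Hoxa10, its neighbour in the cluster and a posterior factor of paralog group 10, ranged from 35.7 to 47.4 TPM with a median of 39.9 TPM in PTS2, and was 35.9, 37.7 and 36.6 TPM in whole kidney. The 3 kidney values lie in the lower part of the tubule range. The difference was 0.12 ± 0.08 on the log2 scale (SE; limma adjusted p = 0.223). Hoxa7, a more central member of the cluster, ranged from 24.4 to 32.2 TPM (median 28.6 TPM) in PTS2 and was 26.5, 30.4 and 25.2 TPM in whole kidney, with a difference of 0.05 ± 0.09 (SE; adjusted p = 0.659). Exons of Hoxa7 share 586 bases (20.4%) with the antisense gene Hoxaas3, and the strand used in counting is not given in the sources used here, so reads of a gene and its antisense partner cannot be told apart. No other protein-coding or antisense gene shares exon bases with Hoxa9 or Hoxa10 in the annotation. Relative to the typical gene these 3 genes were high in the tubules: with the TPM rescaled by the median of ratios they rose, by 0.42 for Hoxa9, 0.38 for Hoxa10 and 0.31 for Hoxa7 (limma adjusted p = 0.000222, 0.00196 and 0.0101). Under that scaling 22.2% of all genes were called higher and 25.0% lower.

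The other Hoxa genes were low in both kinds of sample. Hoxa5 ranged from 2.09 to 4.01 TPM (median 3.02 TPM) in PTS2 and was 2.73, 4.17 and 3.81 TPM in whole kidney (difference -0.23 ± 0.15, SE; limma adjusted p = 0.220), and quantile normalization turned its sign to 0.59. Hoxa3 ranged from 0.26 to 1.26 TPM (median 0.75 TPM) and was 0.83, 1.65 and 0.87 TPM in whole kidney, with overlap. Hoxa11, a member of the Hox11 paralogs, ranged from 0 to 0.62 TPM (median 0.08 TPM). It was 1.46, 1.67 and 1.18 TPM in whole kidney, with every tubule library below. Hoxa11 did not pass the filter, and 800 of its exon bases (35.0%) are shared with the antisense gene Hoxa11os. Hoxa2, Hoxa4, Hoxa6 and Hoxa13 had means below 1 TPM in both.

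In Hoxb, genes near each other on the chromosome differed in how the tubules compared with whole kidney. Hoxb7, whose promoter is widely used to drive transgenes in the collecting duct lineage, ranged from 25.7 to 33.4 TPM (median 28.9 TPM) in PTS2 and was 34.7, 37.0 and 27.3 TPM in whole kidney. The ranges overlapped through the third kidney library. The difference was -0.17 ± 0.10 (SE; limma adjusted p = 0.163), and without whole kidney replicate 3 it was -0.29 (adjusted p = 0.0319); under the median-of-ratios and quantile scalings its sign turned, to 0.09 and 0.13. Markers of the collecting duct principal cell summed to 9.02 to 58.7 TPM in PTS2 against 711 to 976 TPM in whole kidney. The part of those cells in the Hoxb7 values was not tested.

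Hoxb6 ranged from 6.2 to 12.1 TPM (median 8.42 TPM) in PTS2 and was 14.5, 12.5 and 12.9 TPM in whole kidney. No tubule library reached a kidney library. It fell by 0.56 ± 0.16 on the log2 scale (SE; limma adjusted p = 0.00691), and the call was lost under median-of-ratios rescaling (-0.31, adjusted p = 0.140) and quantile normalization (-0.02, adjusted p = 0.942).

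Hoxb9, the Hoxb member of paralog group 9, ranged from 0.53 to 3.93 TPM (median 2.78 TPM) in PTS2 and was 10.0, 10.3 and 7.29 TPM in whole kidney, again without overlap. It fell by 1.53 ± 0.28 on the log2 scale (SE; limma adjusted p = 0.000307), and its tubule mean was 29.0% of the kidney mean. Hoxb5 ranged from 0.38 to 1.29 TPM (median 0.75 TPM) and was 2.32, 1.46 and 1.79 TPM in whole kidney. It passed the filter only through those kidney levels. Hoxb5 fell by 0.68 ± 0.15 (SE; limma adjusted p = 0.00129) on the deposited scale, but its sign turned to 0.20 under quantile normalization.

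Hoxb2, an anterior member, ranged from 5.10 to 10.8 TPM (median 7.78 TPM) in PTS2 and was 6.38, 7.70 and 8.87 TPM in whole kidney, all inside the tubule range. The difference was -0.02 ± 0.16 (SE; limma adjusted p = 0.929), and it was 0.21 and 0.66 under the median-of-ratios and quantile scalings. Exons of Hoxb2 share 953 bases (27.3%) with the antisense gene Hoxb3os. Hoxb8 ranged from 0.11 to 1.65 TPM (median 0.28 TPM) and was 0.63, 1.2 and 1.19 TPM in whole kidney, with overlap through 1 tubule library. Hoxb7 and Hoxb8 are adjacent on the chromosome, and their tubule means were 29.1 and 0.411 TPM. Hoxb1, Hoxb3 and Hoxb4 had means below 1 TPM in both kinds of sample, and Hoxb13 was listed at 0 in all 15 libraries.

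Hoxc was the least expressed cluster. In 5 of its 9 genes every tubule library lay below every kidney library. The same held for 20.0% of all genes above 0 in at least 1 library, and for 32.0% of those that passed the filter. Among the 5, Hoxc4 was low throughout, with a tubule mean of 0.0408 TPM and a kidney mean of 0.303 TPM. Nothing particular to the cluster is read from this count. Hoxc10, a posterior factor, ranged from 3.35 to 6.2 TPM (median 4.98 TPM) in PTS2 and was 7.61, 7.85 and 7.06 TPM in whole kidney. It fell by 0.50 ± 0.14 on the log2 scale (SE; limma adjusted p = 0.00688), which was -0.27 (adjusted p = 0.118) under the median-of-ratios scaling and turned to 0.19 under quantile normalization. Hoxc6 ranged from 1.22 to 1.81 TPM (median 1.52 TPM) and was 5.38, 5.23 and 3.9 TPM in whole kidney. Hoxc6 fell by 1.2 ± 0.12 (SE; limma adjusted p = 2.32e-07) and kept its call in every alternative in which it was tested. Hoxc8 ranged from 0 to 0.40 TPM (median 0.095 TPM) and was 1.89, 2.14 and 2.14 TPM in whole kidney. Hoxc9 ranged from 0.54 to 0.88 TPM (median 0.735 TPM) and was 1.51, 1.94 and 1.82 TPM. For both, every tubule library lay below every kidney library, and neither passed the filter. Hoxc4, Hoxc5, Hoxc11, Hoxc12 and Hoxc13 had means below 1 TPM in both.

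The largest differences were in Hoxd. Hoxd8 ranged from 6.52 to 13.7 TPM (median 9.07 TPM) in PTS2 and was 63.9, 64.2 and 67.8 TPM in whole kidney. It was the most abundant Hox gene of whole kidney and the fifth of the tubules, and its kidney mean was 7.03-fold the tubule mean. Hoxd8 fell by 2.70 ± 0.14 on the log2 scale (SE; limma adjusted p = 4.91e-11), between -2.82 and -2.45 over the alternatives. Its highest tubule value was in the library of set m3 with replicate number 3, and without that library the difference was -2.75 ± 0.10 (SE; limma adjusted p = 2.04e-12).

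Hoxd9 ranged from 2.06 to 4.25 TPM (median 2.84 TPM) in PTS2 and was 11.5, 11.8 and 10.8 TPM in whole kidney. It fell by 1.66 ± 0.15 on the log2 scale (SE; limma adjusted p = 6.67e-08). Hoxd10 was listed at 0 in 3 tubule libraries, had a median of 0.08 TPM, and was at most 0.21 TPM in 11 of the 12. The remaining library, again of set m3 with replicate number 3, had 1.34 TPM. In whole kidney it was 14.97, 13.7 and 16.7 TPM, more than Hoxb6, Hoxd9 or Hoxb9 there. It passed the filter only through those kidney levels, so its call is a description. Hoxd10 fell by 3.80 ± 0.21 (SE; limma adjusted p = 1.5e-10), and without that library by 3.89 ± 0.11 (adjusted p = 6.9e-14). Exons of Hoxd8 and Hoxd9 share no bases with exons of another annotated gene, and Hoxd10 shares 104 bases (5.73%) with Gm28309. Hoxd8 lies within the span of the antisense gene Hoxd3os1, outside its exons.

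Hoxd3 ranged from 0.04 to 0.54 TPM (median 0.25 TPM) in PTS2 and was 1.13, 1.64 and 1.21 TPM in whole kidney, without overlap. Hoxd4 ranged from 0.14 to 0.73 TPM (median 0.57 TPM) and was 1.39, 1.76 and 0.72 TPM, with 1 kidney library inside the tubule range. Both share exon bases with each other and with Gm28230 (53.1% and 39.1% of their own), so their separate values are uncertain. Hoxd11, with a kidney mean of 0.547 TPM, had a tubule mean of 0.0125 TPM, and Hoxd1 had means of 0.10 and 0.00167 TPM. Hoxd12 and Hoxd13 were listed at 0 in all 3 kidney libraries.

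Whole kidney holds cell types that the dissection leaves behind, and in bulk libraries fewer cells of a type and less RNA per cell cannot be told apart. Marker sums of those cell types were lower in every tubule library, as were the Hoxc and Hoxd sums, while the Hoxa sums overlapped. In the library of set m3 with replicate number 3, Hoxd8 and Hoxd10 were the highest among the tubules. So were Hoxb5 (1.29 TPM), Hoxc9 (0.88 TPM), Hoxd3 (0.54 TPM) and Hoxd12 (0.05 TPM), and the noncoding Hoxb5os (2.78 TPM) and Hoxaas3 (3.17 TPM). The Hoxc sum (7.78 TPM) and Hoxd9 (2.93 TPM) of this library lay within the range of the other tubule libraries. Whether marker and Hox levels vary together between libraries was not tested. The 5 thick ascending limb markers summed to 4.75 to 1441 TPM (median 10.7 TPM) in PTS2 and 2425 to 2723 TPM in whole kidney. The 7 stroma and smooth muscle markers summed to 0.92 to 6.13 TPM against 119 to 132 TPM, and the 5 endothelium markers to 10.3 to 36.5 TPM against 130 to 137 TPM. Markers of the intercalated cell, the connecting tubule and the distal convoluted tubule each stayed below 1 TPM in sum in the tubules, and the podocyte markers reached at most 3.2 TPM, with Nphs1 at a median of 0. The part of these cells in the Hox differences was not tested.

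**Figure D3:**
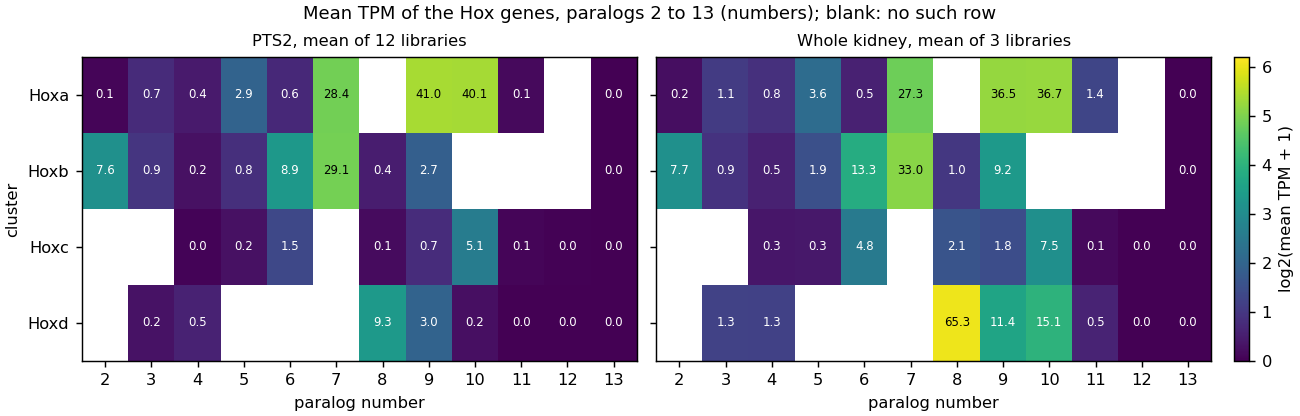
Mean TPM of the Hox genes of paralog numbers 2 to 13, by cluster (rows) and paralog number (columns), in PTS2 (mean of 12 libraries) and whole kidney (mean of 3 libraries); numbers are mean TPM, colour is log2(mean TPM + 1), and white cells are combinations with no row in the table. Levels of at least 25 TPM lie at paralog numbers 7, 9 and 10 of Hoxa and 7 of Hoxb in both panels, and at Hoxd8 (65.3 TPM) in whole kidney only.

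By paralog number, both kinds of sample drew most of their Hox transcripts from the same stretch. Paralogs 7 to 10 held 86.0% ± 1.37 (SD, n = 12) of Hox TPM in PTS2 against 85.8% ± 0.0516 (SD, n = 3) in whole kidney. Paralogs 1 to 6 held 13.9% and 13.5%, and paralogs 11 to 13 held 0.126% and 0.730%. Within that stretch the levels relative to kidney differed. The paralog 7 sum (Hoxa7 and Hoxb7) was 95.4% of its kidney level, paralog 9 was 80.6%, paralog 10 was 76.4% and paralog 8, which has no Hoxa member, was 14.4%. The paralog 2 sum was 97.7% of the kidney level and nearly all Hoxb2. The paralog 11 sum was 9.02%, at 0.190 TPM against 2.11 TPM.

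Ratios between paralogs within a library are also free of such a factor. Relative to Hoxa9 of the same library, Hoxb9 was 6.58% (1.28% to 10.2%) in PTS2 and 25.1% (21.9% to 26.8%) in whole kidney. Hoxd9 was 7.25% of Hoxa9 (5.32% to 11.7%) in PTS2 and 31.3% (30.4% to 32.6%) in whole kidney, and Hoxc9 was 1.77% and 4.84%. Relative to Hoxa10, Hoxc10 was 12.7% (8.70% to 17.1%) in PTS2 and 20.4% (19.3% to 21.2%) in whole kidney. Hoxd10 was 0.491% of Hoxa10 (0% to 3.47%) in PTS2 and 41.2% (36.4% to 45.5%) in whole kidney, and without the library of set m3 with replicate number 3 the tubule mean was 0.220% and the highest 0.512%. In each of these pairs the ranges of the 2 groups were apart. For Hoxb7 relative to Hoxa7 they overlapped, at 104% (80.8% to 136%) in PTS2 and 120% (109% to 131%) in whole kidney, as they did for Hoxa9 relative to Hoxa10 (103% and 99.2%).

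Over all 39 Hox genes, filtered or not, every tubule library lay below every kidney library in 15, and no gene showed the opposite. Among all genes above 0 in at least 1 library, the shares were 20.0% below and 2.27% above. Of the 14 Hox genes that passed the filter 8 were below, where the shares of all genes that passed were 32.0% below and 5.76% above. The 15 were 1 of 11 Hoxa genes, 3 of 10 Hoxb, 5 of 9 Hoxc and 6 of 9 Hoxd. By paralog number they were 3 of 4 at number 9, 2 of 3 at each of 6, 8, 10 and 11, 1 of 3 at each of 1, 3 and 5, 1 of 4 at 4, and 0 at 2, 7, 12 and 13.

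The scale mattered for the direction of several genes. The median difference of all genes was -0.27 on the deposited scale, -0.03 after median-of-ratios rescaling and 0.16 after quantile normalization, so a gene with equal TPM in both kinds of sample stood above the typical gene on the deposited scale. On the median-of-ratios scale 6 of 14 tested Hox genes fell (Hoxd8, Hoxd9, Hoxd10, Hoxb9, Hoxc6 and Hoxb5), where 25.0% of all genes did. On that scale 3 rose (Hoxa7, Hoxa9 and Hoxa10), where 22.2% of all genes did. On the quantile scale 5 fell (Hoxd8, Hoxd9, Hoxd10, Hoxb9 and Hoxc6), where 18.9% of all genes did, and 5 rose (Hoxa5, Hoxa7, Hoxa9, Hoxa10 and Hoxb2), where 34.6% did. Hoxb9, Hoxc6, Hoxd8, Hoxd9 and Hoxd10 were called lower under every alternative in which they were tested. Hoxb5 and Hoxd10 passed the filter only through their kidney levels, so their calls are a description.

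**Figure D4:**
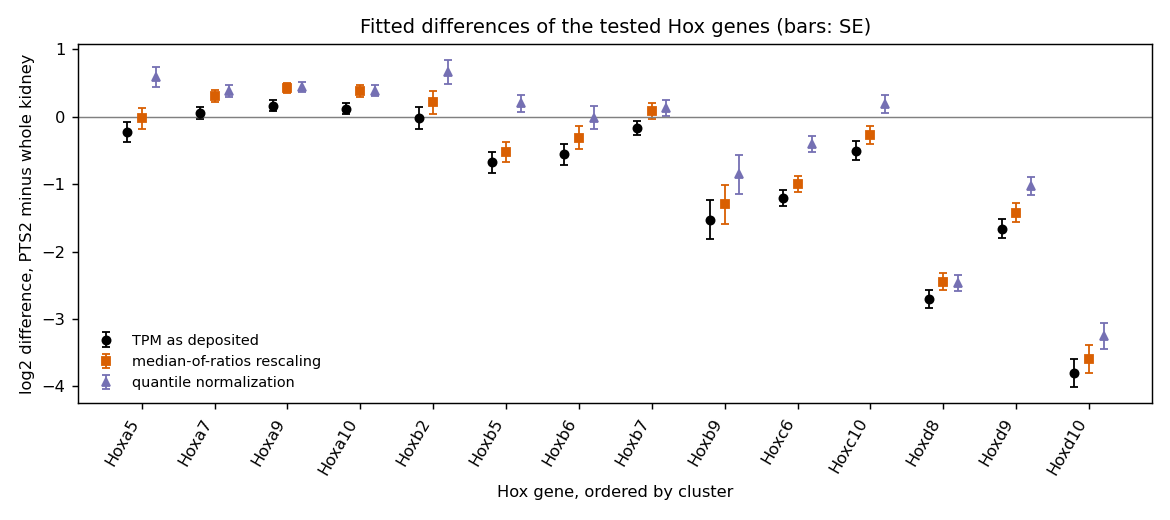
Fitted log2 difference (PTS2 minus whole kidney) of the 14 tested Hox genes on 3 scales, the deposited TPM (circles), median-of-ratios rescaling (squares) and quantile normalization (triangles); bars are standard errors. Hoxb9, Hoxc6, Hoxd8, Hoxd9 and Hoxd10 lie below 0 on all 3 scales, while Hoxa5, Hoxb2, Hoxb5, Hoxb7 and Hoxc10 change sign.

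Among the tubules, the 3 sets were compared gene by gene. The limma F test over sets m1, m2 and m3 called 3.02% of the 11300 genes tested and 0 of the 12 Hox genes tested, with 0 at an unadjusted p under 0.05, which 16.4% of all genes tested had. Hoxa10 had the lowest p of them, with set means of 43.6, 38.0 and 38.7 TPM (limma adjusted p = 0.345). Hoxa9 had set means of 42.7, 38.7 and 41.8 TPM, Hoxb7 of 29.8, 28.4 and 29.3 TPM, and Hoxd8 of 8.76, 9.20 and 9.90 TPM. A p above the threshold does not show that the sets are alike.

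A different pattern was seen in Hoxb9, and a test of the replicate number was added after its values were seen. In replicate 4 Hoxb9 was 0.53, 1.51 and 1.72 TPM (sets m1, m2 and m3), while the other 9 tubule libraries ranged from 2.43 to 3.93 TPM. The limma F test by replicate number, with the set as a term, called 2.71% of 11300 genes and 0 of the 12 Hox genes tested, 4 of which had an unadjusted p under 0.05, as did 21.1% of all genes tested. For Hoxb9 the difference of replicate 4 from replicate 1 was -0.95 ± 0.22 on the log2 scale (SE). It was -0.41 ± 0.15 for Hoxb6, -0.34 ± 0.14 for Hoxb2 and -0.04 ± 0.08 for Hoxb7 (SE). The limma F test over the replicate numbers gave these genes adjusted p = 0.0730, 0.199, 0.174 and 0.221, in that order. None passed the adjusted threshold in that F test, and the difference of replicate 4 from replicate 1 was not tested on its own. Markers of the tubule segments also differed at this number. The S2 markers summed to 892 to 1149 TPM in the 3 libraries of replicate 4 against 368 to 762 TPM in the other 9, the S1 markers to 60.5 to 79.9 TPM against 36.3 to 52.8 TPM, and the S3 markers to 2219 to 3145 TPM against 3257 to 4711 TPM, each without overlap. Of the 3 S1 markers only Slc2a2 had a tubule mean of at least 1 TPM, so the S1 sums in the tubules are nearly all Slc2a2. The part of the segment markers in the Hoxb9 values was not tested. The labels do not say what a replicate number stands for.

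**Figure D5:**
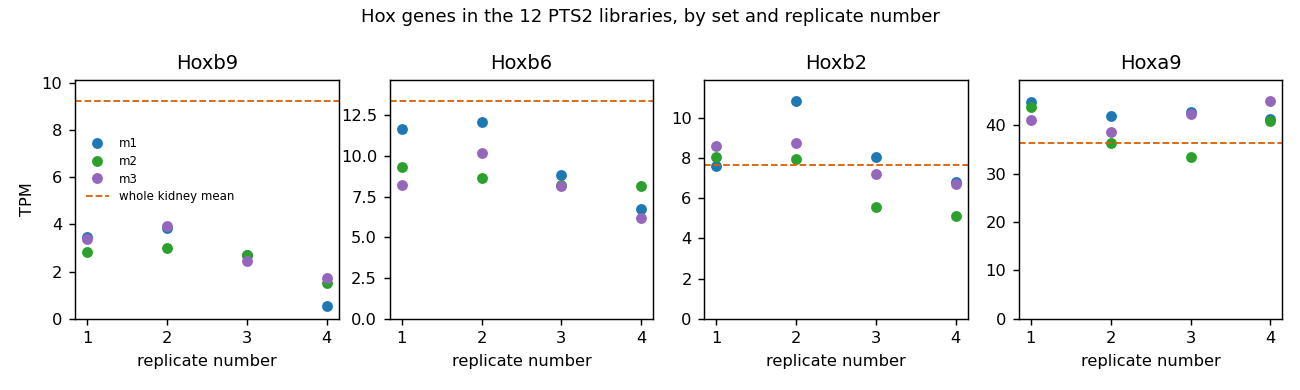
TPM of Hoxb9, Hoxb6, Hoxb2 and Hoxa9 in the 12 PTS2 libraries by replicate number (horizontal axis, a label without order) and set (colour); the dashed line is the whole kidney mean of 3 libraries. Hoxb9 is lowest at replicate 4 in all 3 sets, at 0.53 to 1.72 TPM.

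Genes around the Hox genes were followed as 5 lists, to be read beside the 41.5% of all genes called lower and 9.68% called higher on the deposited scale, and beside 25.0% and 22.2% after median-of-ratios rescaling and 18.9% and 34.6% after quantile normalization. Nothing particular to a list is read from its count. Of 11 noncoding genes of the clusters, 6 were tested, of which 1 rose, 2 fell and 3 were not called (limma, median difference 0.14 against -0.27 over all genes). With median-of-ratios rescaling 2 rose and 2 fell, and with quantile normalization 4 rose and 2 fell. Hoxb5os, antisense to Hoxb5, ranged from 0.41 to 2.78 TPM (median 0.925 TPM) in PTS2 and was 20.6, 16.0 and 18.6 TPM in whole kidney. It fell by 3.27 ± 0.23 on the log2 scale (SE; adjusted p = 4.56e-09), where Hoxb5, with which it shares 100 exon bases, fell by 0.68. Halr1, near the anterior end of Hoxa, ranged from 0.25 to 2.49 TPM and was 10.4, 6.08 and 4.95 TPM in whole kidney. Halr1 fell by 1.92 ± 0.31 (SE; limma adjusted p = 6.67e-05).

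Hoxb3os ranged from 4.18 to 8.10 TPM (median 6.46 TPM) in PTS2 and was 5.45, 4.32 and 4.38 TPM in whole kidney. It rose by 0.37 ± 0.15 (SE; limma adjusted p = 0.0478), and the call was lost in 14 of 24 alternatives, with adjusted p up to 0.170. It shares 2250 exon bases with Hoxb3, whose values are uncertain for that reason. Hoxd3os1 was 20.4 TPM ± 2.86 (SD, n = 12) in PTS2 against 18.1 TPM ± 0.916 (SD, n = 3) for whole kidney (difference 0.15, limma adjusted p = 0.308), and it lay above Hoxd8 in every tubule library. Hotairm1 was 12.0 TPM ± 2.85 (SD, n = 12) and 10.9 TPM ± 3.76 (SD, n = 3), and Hoxaas3 1.95 TPM ± 0.679 (SD, n = 12) and 1.62 TPM ± 0.131 (SD, n = 3), neither called.

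Of 9 cofactor genes, the Pbx, Meis and Pknox homeodomain proteins that bind DNA beside Hox proteins, 6 were tested; 0 rose, 4 fell and 2 were not called (limma, median difference -0.71). Meis2 was 0.587 TPM ± 0.370 (SD, n = 12) in PTS2 against 6.36 TPM ± 1.23 (SD, n = 3) for whole kidney, a fall of 2.23 ± 0.20 (SE; adjusted p = 8.68e-08); it passed the filter only through its kidney level. Pbx2 and Pbx3 fell by 0.85 and 0.57 (limma), while Pknox1 was 15.3 TPM ± 2.18 and 15.4 TPM ± 0.507 and was not called. After median-of-ratios rescaling 3 cofactors fell and 0 rose, and after quantile normalization 1 fell and 2 rose.

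Of 20 chromatin genes that keep Hox clusters on or off (Polycomb, Trithorax and related), 19 were tested; 0 rose, 12 fell and 7 were not called (limma, median -0.48). The largest falls were those of Cbx7, a Polycomb subunit (7.86 TPM in PTS2 against 16.3 TPM in whole kidney, -0.99 ± 0.19 SE, limma adjusted p = 0.000325), and of Kmt2a, a Trithorax methyltransferase (0.863 and 2.30 TPM, -0.83 ± 0.15 SE, limma adjusted p = 0.000247), which passed the filter only through its kidney level. With median-of-ratios rescaling 8 fell and 1 rose, and with quantile normalization 2 fell and 2 rose.

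Of 16 genes that flank the clusters 15 were measured and 10 tested; 1 rose, 4 fell and 5 were not called (limma, median -0.22). Next to Hoxa, Skap2 was 57.2 TPM in PTS2 against 57.7 TPM in whole kidney (adjusted p = 0.876 in limma), and Hibadh, an enzyme of valine breakdown, was 995 and 819 TPM and rose by 0.28 ± 0.07 (SE; limma adjusted p = 0.00295). Snx10, beyond Skap2, was 0.223 and 6.03 TPM and fell by 2.52 ± 0.15 (SE; limma adjusted p = 3.76e-10), and it passed the filter only through its kidney level. Beside Hoxd, Mtx2 was 69.3 and 71.5 TPM and was not called, although Hoxd8, Hoxd9 and Hoxd10 of that cluster all fell. Near Hoxc, Cbx5 was 13.9 and 33.5 TPM and fell by 1.22 ± 0.13 (SE; limma adjusted p = 9.89e-07). Rescaled by the median of ratios, 2 of the flanking genes fell and 3 rose, and on the quantile scale 2 fell and 2 rose.

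Of 25 kidney development factors 14 were tested; 0 rose, 5 fell and 9 were not called (limma, median -0.21). Tcf21 of the stroma and podocytes fell by 3.84 ± 0.26 (SE; adjusted p = 2.46e-09, 0.498 TPM in PTS2 against 19.6 TPM in whole kidney). Gata3 of the collecting duct fell by 2.81 ± 0.10 (SE; limma adjusted p = 7.94e-13, 0.0383 and 6.27 TPM). Both passed the filter only through their kidney levels. Pax8 of the nephron epithelium was 88.4 and 79.6 TPM, Emx2 12.3 TPM in both, and neither was called. Of these factors 3 fell and 1 rose after median-of-ratios rescaling, and 2 fell and 4 rose after quantile normalization.

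The 18 Hox genes with a mean below 1 TPM in both kinds of sample reached at most 1.68 TPM in any tubule library, the highest being Hoxb3. Of all 39, 6 were listed at 0 in every kidney library (Hoxa13, Hoxb13, Hoxc12, Hoxc13, Hoxd12 and Hoxd13), which with 3 libraries of unknown depth is not a sign of absence. With the filter lowered to a mean of 0.1 TPM, 17 of 28 tested Hox genes fell and none rose (limma), where 41.7% of all genes fell and 6.65% rose. They were 2 of 9 Hoxa genes, 5 of 8 Hoxb, 4 of 5 Hoxc and 6 of 6 Hoxd. Hoxd11 passed the lowered filter only through its kidney level (0.0125 TPM in PTS2, 0.547 TPM in whole kidney), so these counts are a description. With no filter 19 of 38 fell and none rose, against 26.9% and 3.47% of all genes.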

How the data were processed

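Poly(A) RNA was copied to cDNA with a low-input kit, per the labels' protocols. Per the submitters' processing notes, STAR 2.5.1b, RSEM 1.2.31 and GRCm38.p5 were used; the annotation release and strand setting are not given in the sources used here. The authors deposited 1 table of TPM per gene and library. Their 4 columns of means and standard errors were not used, and no other per-sample column was present. Libraries were grouped by the description labels, and no 2 columns were identical. Depth is unknown, so no counting interval is given.

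The fits used lmFit and eBayes with a trend (limma 3.58.1, R 4.3.3) on log2(TPM + 1), which understates changes of low genes, and kept genes whose mean reached 1 TPM. The set was a correlated block (correlation 0.0669) for PTS2 against whole kidney, over 15 libraries, and a term among the 12 PTS2 libraries. On simulated data with 200 changed genes among 12039, PTS2 against whole kidney recovered 163 at a true log2 difference of 1 (10 false calls) and 198 at 2 (14 false calls), and the test among sets 142 (8 false calls) and 186 (5 false calls). Values were given for every Hox gene that averaged at least 1 TPM in either kind of sample, and for up to 5 called genes of each list with the largest differences; others named beside them were chosen after their values were seen. The Hox genes, lists and tests were chosen with earlier results of these data known. Some items that met these rules are left out. Positions come from GENCODE M21 and upstream sequences from RefSeq on GRCm38.p6. Other steps ran in Python 3.11.15 with pandas 2.3.3, numpy 2.4.6, matplotlib 3.10.9 and scipy 1.17.1.

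Results were recomputed with a pseudocount of 0.1, without a filter, with means of at least 0.1 or 10 TPM, quantile normalization, median-of-ratios rescaling, a replicate block, no correlation within sets, set means, leaving out mitochondrial genes, and leaving out each library. The test by replicate number was added after the data were seen.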

Additional observations from a re-analysis of the deposited data

Results flagged for a closer look

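Single libraries that stood apart within their set of 4 were looked for with Dixon's criterion, in 96 tests on Hox genes and cluster transcripts. Of these, 8 stood out, where chance flags about 1 in 20, here 4.8, if values are normally distributed. Values near 0 may not be, so the number expected is rough. In set m3, replicate 3 had the highest Hoxd8 (13.68 TPM, the next 8.82) and Hoxd10 (1.34 TPM, the next 0.17). The same library had the thick ascending limb markers at 1441 TPM in sum, and the part of those cells in the Hoxd values was not tested. Hoxd10 also stood out in m1 replicate 4, at 0.21 TPM with the other 3 listed at 0. Beside 3 values at 0 any value above 0 is flagged, so nothing is read from this flag. Hoxd9 stood out in m2 replicate 2 (4.25 TPM, the next 2.71), Hoxb5 in m2 replicate 4 (0.92 TPM, the next 0.70) and Hoxb8 in m3 replicate 1 (0.55 TPM, the next 0.25). Hoxa11os, antisense to Hoxa11, stood out in m1 replicate 2 (1.60 TPM, the next 0.10) and in m2 replicate 4 (0.25 TPM, the next 0.04).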

How the results depend on the processing

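For PTS2 against whole kidney, 8 Hox genes were called by limma. The number was 19 of 38 tested with no filter and 17 of 28 at a mean of 0.1 TPM. It was 1 of 5 at a mean of 10 TPM, where fewer genes pass. All these calls were lower in PTS2. Of all genes tested, 41.5% were called lower in the main fit, 26.9% with no filter and 41.7% at 0.1 TPM. At 10 TPM 3113 of 6737 genes were called, 2130 of them lower. With single libraries left out the number of Hox genes called was 7 to 9. Hoxb5 could not be tested where it dropped under the filter. Likewise the genes under 10 TPM have no value at that filter. Among the sets and by replicate number it was 0 in every alternative, 0 to 0 with single libraries left out. Signs turned under quantile normalization for Hoxa5 (0.59), Hoxb2 (0.66), Hoxb5 (0.20), Hoxb7 (0.13) and Hoxc10 (0.19), and under median-of-ratios rescaling for Hoxb2 (0.21) and Hoxb7 (0.092). Without whole kidney replicate 3 they turned for Hoxa7 (-0.0020), Hoxb2 (0.081) and Hotairm1 (-0.077), and for Hoxb2 without m2 replicate 3 (0.01) or m2 replicate 4 (0.02); with single libraries left out Hoxb2 ranged from -0.13 to 0.081 and Hotairm1 from -0.077 to 0.38. Median-of-ratios rescaling moved the kidney sums to 93.4 TPM for Hoxa, 58.1 for Hoxb, 14.6 for Hoxc and 82.0 for Hoxd, and put every tubule Hoxa sum above them (110 to 146 against 90.9 to 96.1). With single libraries left out, the tubule sums were 113 to 116 TPM for Hoxa, 49.4 to 51.4 for Hoxb, 7.67 to 7.97 for Hoxc and 12.7 to 13.5 for Hoxd, and the kidney sums 105 to 111, 64.9 to 70.8, 16.4 to 17.6 and 93.7 to 95.7. The cause of these changes was not tested.

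The replicate numbers were not taken to pair libraries, because the labels give them no meaning and 7 of 12 same-numbered pairs of tubule libraries, not all, had deviations that correlated over 0.1 (mean 0.143). As a hint from the data, 9 of 12 libraries correlated best with their own number. With the replicate block 8 of 14 Hox genes, and 6292 of all 12039 genes, were called against whole kidney, and Hoxb2 turned to 0.061. Among the sets 0 Hox genes were called with it, and the block moved the number of all genes called from 341 to 888. Leaving out single libraries moved that number between 197 and 563, and the number called by replicate number from 306 to between 75 and 507.

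TPM of unknown depth limit the low Hox genes, and 3 kidney libraries limit every comparison.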
